A study of Danio rerio with 12 samples.

Results

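The genes described here belong to families with roles in the oxidation of alcohols and aldehydes or in redox defence. Not all of these genes act there, as with *aldh18a1* in proline synthesis, *cyp11a1.1* in pregnenolone synthesis and the splicing-linked *txnl4a*. They were taken from the annotation of the Affymetrix Zebrafish Genome Array by symbol and comprise alcohol dehydrogenases (*adh5* and *adh8* genes), aldehyde dehydrogenases, thioredoxin genes, peroxiredoxins, glutathione peroxidases, glutathione transferases, the genes of glutathione synthesis and reduction, superoxide dismutases, catalase, *nqo1* with *keap1* and *nfe2l2* genes, and cytochromes P450 whose symbols begin with *cyp1*, *cyp2* or *cyp3*. *aldh1a2* and the *cyp26* genes were left out. The array carries 111 such probe sets for 89 genes, out of 15617 probe sets in all. Of these genes, 59 had a probe set that averaged 50 or more in control or in ethanol-exposed embryos and were tested, each on its brightest probe set, and 30 lay under that minimum.

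The data are 12 arrays of zebrafish embryo pools, 6 control and 6 ethanol, each from 20 whole embryos of a strain labelled ABTL with no transgene or mutation named. All embryos were kept in embryo medium. The ethanol pools had 100 mM ethanol in it from 2 hours post-fertilization (hpf), the control pools had none, and total RNA was taken from both at 4.5 hpf, shortly before gastrulation. A control and an ethanol array of the same number, 1 to 6, were treated as 1 independent experiment. The values are MAS5 signals, a brightness on a linear scale that the authors scaled on each array, and signals of different genes are not comparable because their probes differ.

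Some alcohol dehydrogenases oxidize ethanol to acetaldehyde, and aldehyde dehydrogenases, in mammals chiefly the mitochondrial ALDH2, carry acetaldehyde on to acetate. Catalase and some cytochromes P450 of family 2 can also oxidize ethanol, and the P450 route gives off reactive oxygen. Superoxide dismutases, catalase, peroxiredoxins and glutathione peroxidases remove superoxide and peroxides. Thioredoxin and glutathione supply the electrons for the peroxiredoxins and glutathione peroxidases. The transcription factor Nrf2, held back by Keap1, switches on many of these genes under oxidative stress.

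The log2 signal was modelled by limma, with factors for treatment and experiment, over all 9767 probe sets tested. The estimate, called the log2 change here, is ethanol over control. A call needed an adjusted p (Benjamini-Hochberg, over all probe sets) under 0.15 with a raw p under 0.03 and a log2 change of 0.32 or more in size. By that rule 4 of the 59 genes were called, a share of 6.78% against 5.40% of all probe sets. *txnrd3* and *aldh7a1* rose, 3.78% of all probe sets being called higher, *nqo1* fell, and *cyp2aa4* was also called lower, 1.62% of all probe sets being called lower. The share of genes called is near the share in the whole array. *cyp2aa4* reached the minimum through its controls alone, which by itself favours a lower ethanol signal, so its fall and its place in the count of 4 cannot be read as a result. With the minimum of 50 set on the mean of all 12 arrays, an alternative chosen after seeing the data, *cyp2aa4* was not tested. Of 58 genes, 5 were then called, a share of 8.62% against 5.75% of all probe sets. These were 3 higher (*txnrd3*, *aldh7a1* and *txnipa*, against 4.09% of all probe sets) and 2 lower (*nqo1* and *cyp27c1*, against 1.67%), the last of each having narrowly missed the threshold before. Over all probe sets 70.0% of the calls were higher, against 43.1% after quantile normalization and 29.5% after median centring of the arrays, and in both of these fits *txnrd3* was the only one of the 59 genes called higher. In pooled whole embryos, fewer cells of a type and less RNA per cell cannot be told apart.

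The median log2 change was 0.02 over the 59 genes and 0.05 over all probe sets tested. It was -0.05 for the genes after quantile normalization and -0.09 after median centring of the arrays, which moved the median of all probe sets to -0.05. Log2 changes of 0.32 or more in either direction were fitted for 9 of the 59 genes (15.3%) and for 19.1% of all probe sets. An unadjusted p under 0.05 was found for 10 genes (16.9%, against 18.2%). The sign was the same in all 6 experiments for 6 genes (10.2%, against 12%). *cyp2aa4* and *cyp19a1b*, which reached the minimum through their controls alone, are among the 9 and the 10, and *cyp2aa4* is among the 6. The same minimum was used for all probe sets. For 13 genes (22.0%, against 20.5%) the whole 95% interval of the change lay within 0.32 of 0 on the log2 scale. For no gene were all control signals on one side of all ethanol signals, a separation seen in 0.594% of all probe sets. With those 2 genes included, the shares of the genes were close to those of the array as a whole on each of these counts.

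**Figure D1:**
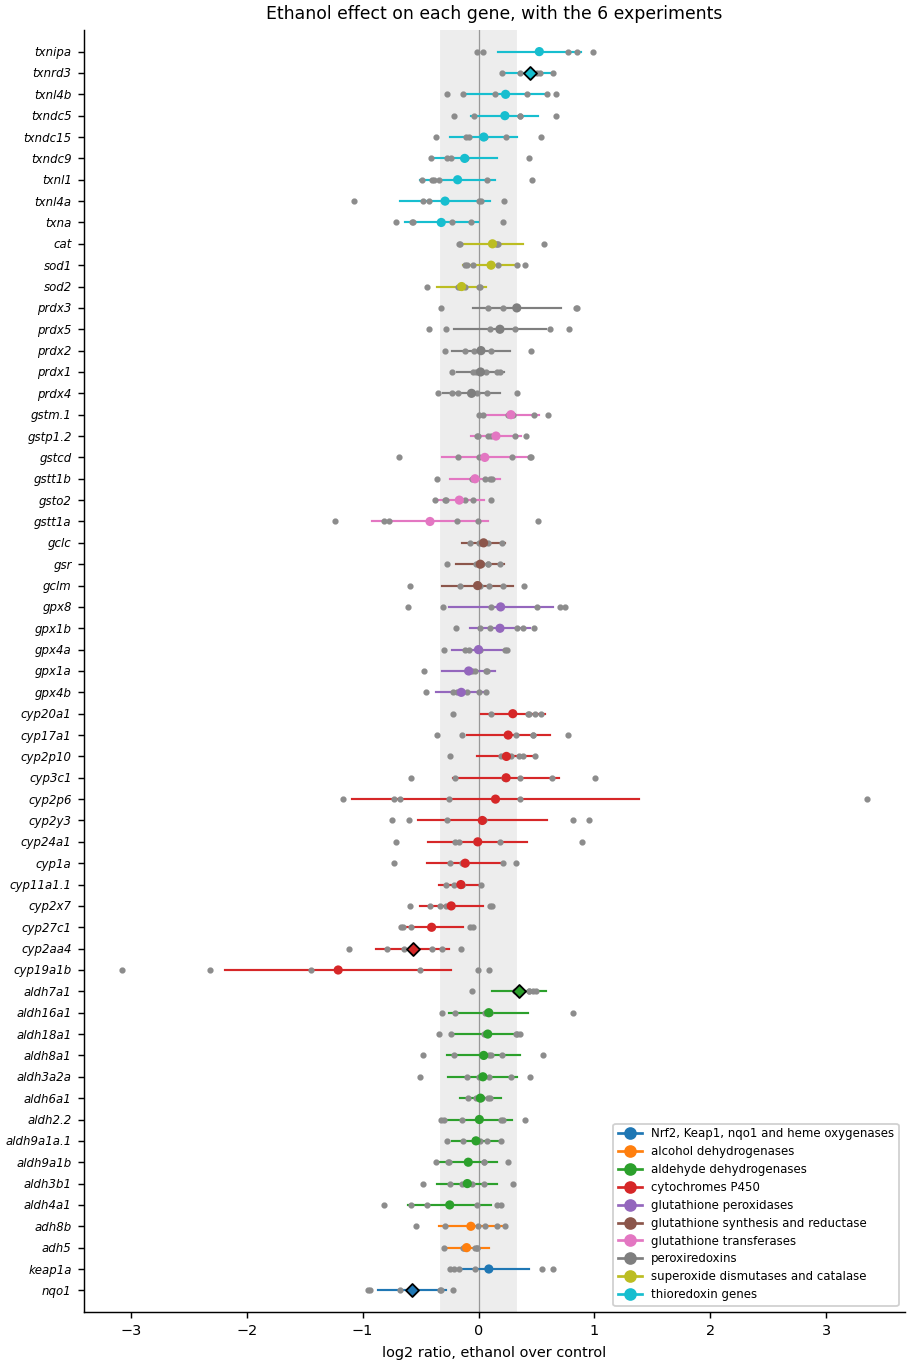
Log2 ratio of ethanol over control for the 59 genes, grouped and coloured by role. Large symbols with bars are the limma estimate and its 95% interval (diamonds with a black edge, called), small grey points are the 6 experiments, and the grey band spans -0.32 to 0.32, the size a call needed. The 4 called genes are *txnrd3*, *aldh7a1*, *nqo1* and *cyp2aa4*, and *cyp19a1b* and *cyp2p6* have the widest scatter.

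Of the alcohol dehydrogenases, *adh5* and *adh8b* were tested and neither was called. *adh5* encodes the class III enzyme, which acts on glutathione-bound formaldehyde and on S-nitrosoglutathione. Its control signals had a lowest value of 1605, a median of 2948 and a highest of 3408, and its ethanol signals a lowest of 1556, a median of 2796 and a highest of 3345. The groups overlap almost over their whole range. Within each experiment the ethanol array was the lower, in 6 of 6, but by little. The log2 change was -0.10 (standard error 0.08, 95% interval -0.29 to 0.09, adjusted p = 0.528), and an exact permutation test that flips the signs of the 6 ratios (two-sided) gave p = 0.031, the smallest value 6 ratios can give. *adh8b*, a fish alcohol dehydrogenase gene, had control signals of 269.5 to 569 and ethanol signals of 223 to 525. Its ethanol array was higher in 3 of 6 experiments, with a log2 change of -0.07 (standard error 0.12, 95% interval -0.34 to 0.21). *adh8a*, whose product oxidizes ethanol in zebrafish, averaged 46.3 ± 17.6 on the control arrays and 45.6 ± 18.3 on the ethanol arrays (SD, n = 6), just under the minimum, and was not tested. Just above that minimum lay *cyp2aa4*, with a control mean of 52.7, and *cyp1a*, with a control mean of 53.4.

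All 11 aldehyde dehydrogenase genes on the array were tested. *aldh7a1* rose, and the other 10 did not pass, with log2 changes from -0.25 (*aldh4a1*) to 0.09 (*aldh16a1*) and a group median of 0.02. For *aldh2.2*, a zebrafish counterpart of the acetaldehyde-oxidizing ALDH2, control signals ran from 371 to 994 (median 851) and ethanol signals from 395 to 1007 (median 834). The ethanol array was higher in experiments 1, 4 and 5 and lower in 2, 3 and 6. On average the log2 change was 0.01 (standard error 0.12, 95% interval -0.28 to 0.29, adjusted p = 0.983), an interval that lies within 0.32 of 0. *aldh18a1*, which acts in the synthesis of proline, had a log2 change of 0.08 (standard error 0.12, 95% interval -0.21 to 0.36), with the ethanol array higher in 4 of 6 experiments. *aldh6a1*, a gene of valine breakdown, gave the most even ratios of the group, from -0.09 to 0.10.

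*aldh7a1*, also called antiquitin, encodes an enzyme of lysine breakdown that also oxidizes aldehydes from lipid peroxidation. Its control signals had a lowest value of 297, a median of 336 and a highest of 465, and its ethanol signals a lowest of 353, a median of 441 and a highest of 629. The highest control and the highest ethanol signal are both from experiment 6, and the lowest ethanol signal lies above 4 of the 6 control signals. This is a log2 change of 0.35 (standard error 0.10, adjusted p = 0.148, exact sign-flip permutation p = 0.0625). The ratios in experiments 1 to 6 were 0.43, -0.05, 0.49, 0.32, 0.47 and 0.44, so that only experiment 2 showed no rise. The call lay close to the threshold, and leaving out any single experiment ended it, with log2 changes of 0.32 to 0.43 and adjusted p from 0.156 to 0.284. After quantile normalization and after median centring the change was 0.25 and 0.24 and not called.

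Of the 9 thioredoxin genes tested, *txnrd3* was called, with the lowest adjusted p of the 59 genes. *txnrd3*, which has *txnrd1* among its older names, encodes a thioredoxin reductase, the enzyme that reduces thioredoxin with NADPH. Control signals had a lowest value of 1018, a median of 1278 and a highest of 1719, and ethanol signals a lowest of 1473, a median of 1761 and a highest of 2126. Only the control of experiment 6 reached into the ethanol range, and within experiments ethanol was higher in 6 of 6. The log2 change was 0.44 (standard error 0.09, adjusted p = 0.0940, exact sign-flip permutation p = 0.031), a mean of 1782 ± 258 against 1319 ± 251 (SD, n = 6). The ratios were 0.53, 0.50, 0.64, 0.36, 0.41 and 0.20 in experiments 1 to 6. Without experiment 6 the call was kept, and it was lost without 1, 2, 3, 4 or 5, at adjusted p from 0.167 to 0.203 and log2 changes of 0.40 to 0.46. A second *txnrd3* probe set was dim, with means of 43.1 in control and 40.7 in ethanol-exposed embryos, and was not tested.

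*txnipa* encodes a thioredoxin-interacting protein, which binds thioredoxin and in mammals also lowers glucose uptake. Control signals ran from 1069 to 2738 (median 1647) and ethanol signals from 1786 to 2807 (median 2617). The ratios were 0.51, 0.99, 0.77, -0.01, 0.85 and 0.04, large in experiments 1, 2, 3 and 5 and close to 0 in 4 and 6. The log2 change of 0.52 (standard error 0.16) did not pass, at an adjusted p = 0.157. With a signal minimum of 100 it passed, at an adjusted p = 0.0836, and so did the fit with experiment as a random block, at an adjusted p = 0.114. The thioredoxin gene *txna* itself had control signals of 10339.7 to 20252 and ethanol signals of 9639.8 to 12461. Its log2 change was -0.32 (standard error 0.14, adjusted p = 0.263), with the ethanol array lower in 5 of 6 experiments. The control of highest *txna* signal was thus far above every ethanol array, whereas the lowest signals of both groups were close. The other 6 tested thioredoxin genes, which include the splicing-linked *txnl4a* and the endoplasmic reticulum oxidoreductase *txndc5*, had log2 changes from -0.29 to 0.23. The genes *txnb* and *txnipb* lay under the minimum.

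*nqo1* fell. It encodes a quinone reductase that uses NADH or NADPH and is a widely used target gene of Nrf2. Control signals had a lowest value of 826, a median of 1269 and a highest of 1907, and ethanol signals a lowest of 658, a median of 756 and a highest of 1170. The 4 lowest ethanol signals lie below every control signal, and the arrays of experiments 1 and 2 account for the remaining overlap. The ethanol array was lower in 6 of 6 experiments, with ratios of -0.93, -0.22, -0.96, -0.33, -0.33 and -0.68. For *nqo1* the log2 change was -0.58 (standard error 0.13, adjusted p = 0.105, exact sign-flip permutation p = 0.031), from 1278 ± 381 to 845 ± 197 (SD, n = 6). The fall kept its sign without any one experiment, at -0.50 to -0.65, but not its call, at adjusted p from 0.158 to 0.215. *keap1a*, which encodes the Nrf2 inhibitor, had control signals of 38.6 to 91.8 and ethanol signals of 56.4 to 87.3, with a log2 change of 0.09 (standard error 0.15, 95% interval -0.25 to 0.43). Both probe sets of *nfe2l2a*, which encodes Nrf2, were under the minimum, with means of 15.9 to 20.3.

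**Figure D2:**
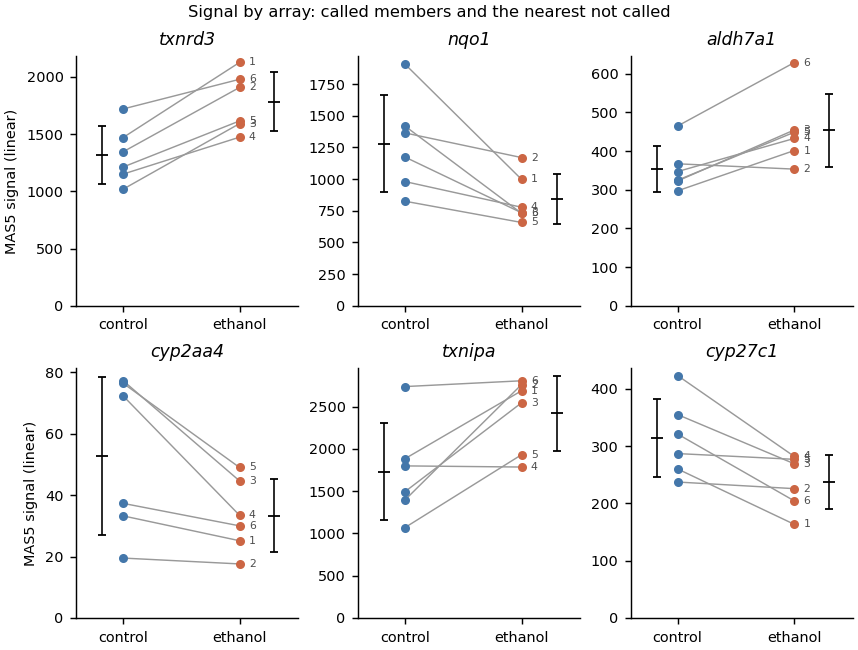
MAS5 signal (linear scale) on each array for the 4 called genes and for *txnipa* and *cyp27c1*, which narrowly missed the threshold. Lines join the control and ethanol array of an experiment, numbered at the right, and black bars are the mean and SD of 6 arrays. The lines of *txnrd3* all rise and those of *nqo1*, *cyp2aa4* and *cyp27c1* all fall, while *aldh7a1* falls in experiment 2 and *txnipa* is flat in experiments 4 and 6. *cyp2aa4* was admitted by its controls alone, so its fall cannot be read as a result.

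Cytochromes P450 are the largest family, with 37 genes on the array, of which 24 were under the signal minimum and 13 were tested. *cyp2aa4*, of a P450 subfamily found in fish, was the only one called. Its control signals had a lowest value of 19.5, a median of 54.8 and a highest of 77.3, and its ethanol signals a lowest of 17.6, a median of 31.7 and a highest of 49.0. The controls of experiments 3, 4 and 5 stood above all ethanol arrays, and the others lay among them. Its log2 change was -0.57 (standard error 0.14, adjusted p = 0.113, exact sign-flip permutation p = 0.031), lower in 6 of 6 experiments. The ethanol mean of 33.3 lay under the minimum, so that the gene entered through its controls alone, as did *cyp19a1b*, and neither its call nor the size of the difference can be relied on. With experiment as a random block its call was lost (adjusted p = 0.214), while *cyp19a1b* and *cyp27c1* were called lower. Without experiment 3, 4 or 5 it no longer reached the minimum, and without 1, 2 or 6 its call was lost, at adjusted p from 0.162 to 0.182. With 50 added to each signal its log2 change was -0.27 and not called.

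*cyp27c1*, which in zebrafish converts vitamin A1 to vitamin A2, had control signals of 237 to 423 (median 304) and ethanol signals of 163 to 282 (median 247). The ethanol array was lower in 6 of 6 experiments, with ratios of -0.67, -0.07, -0.40, -0.59, -0.05 and -0.65 in experiments 1 to 6. For *cyp27c1* the log2 change was -0.40 (standard error 0.12, adjusted p = 0.151, exact sign-flip permutation p = 0.031), a miss by a narrow margin. It was called under 6 alternatives, among them quantile normalization and median centring, at log2 changes of -0.34 to -0.51. *cyp19a1b*, the brain aromatase gene, had the largest fitted fall, -1.21 (standard error 0.42, adjusted p = 0.205). Its control signals were 45.2 to 105 and its ethanol signals 6.87 to 63.2. It was admitted by its controls alone (means of 67.1 and 33.9). Neither the size and rank of its fall nor its call under an alternative can therefore be relied on. Its ratios ran from -3.08 in experiment 1 to 0.09 in experiment 3, and its other probe sets, both dimmer, were higher in 3 of 6 experiments each. The *cyp19a1b* probe set tested is of a kind, marked in its name, whose probes can also match other transcripts. *cyp11a1.1*, which makes pregnenolone from cholesterol, was lower in 5 of 6 experiments with a log2 change of -0.15 (standard error 0.08, 95% interval -0.34 to 0.03). For *cyp2p6*, a family 2 gene, the control of experiment 2 read 5.75 against 57.2 or more on the other 11 arrays, and the log2 change of 0.15 had an SE of 0.54. *cyp20a1* had a log2 change of 0.30 (standard error 0.12, adjusted p = 0.254), and the remaining P450 genes lay between -0.24 and 0.26.

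None of the 3 superoxide dismutase and catalase genes was called, against 5.40% of all probe sets. With so few genes, a count of 0 is near that share. For none of the 3 did the whole 95% interval lie within the size a call needed, against 20.5% of all probe sets. The lack of a call therefore does not show that these genes were unchanged. *cat*, which encodes catalase, had control signals of 890 to 1191 (median 1123) and ethanol signals of 1017 to 1316 (median 1190). The groups share most of their range, and the ratio was positive in 4 of 6 experiments, with a log2 change of 0.12 (standard error 0.11, 95% interval -0.14 to 0.38). *sod1*, the cytosolic superoxide dismutase gene, ran from 1398 to 2394 in control and from 1490 to 2415 in ethanol arrays, with a log2 change of 0.11 (standard error 0.10, 95% interval -0.13 to 0.35). *sod2*, the mitochondrial one, ran from 1772 to 2217 and from 1327 to 2044, with a log2 change of -0.15 (standard error 0.09, 95% interval -0.36 to 0.06). Both *sod* genes had overlapping groups, and the lowest *sod2* signal was the ethanol array of experiment 1.

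None of 5 peroxiredoxin and 5 glutathione peroxidase genes was called, against 5.40% of all probe sets. None had an unadjusted p under 0.05 (0 of 5 in each family), against 18.2%. With so few genes, counts of 0 are near those shares. *prdx3*, of the mitochondrial peroxiredoxin, had the largest change in these families, from control signals of 196 to 401 to ethanol signals of 294 to 465. The ethanol array was higher in 5 of 6 experiments, with a log2 change of 0.33 (standard error 0.16, adjusted p = 0.329). *prdx2*, a cytosolic peroxiredoxin gene, changed little, 0.02 (standard error 0.11, 95% interval -0.23 to 0.27), from a control range of 3963 to 6348 to an ethanol range of 4697 to 6161. *gpx4b*, whose product reduces lipid hydroperoxides in membranes, had a log2 change of -0.15 (standard error 0.09, 95% interval -0.37 to 0.07). Over the peroxiredoxins the median was 0.02 and over the glutathione peroxidases it was -0.00. For 3 of 5 peroxiredoxins and 2 of 5 glutathione peroxidases the 95% interval lay within 0.32 of 0, against 20.5% of all probe sets.

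The 95% interval lay within 0.32 of 0 on the log2 scale for 20.5% of all probe sets and for all 3 genes of glutathione synthesis and reduction. These are *gclc* and *gclm*, the catalytic and modifier subunits of the rate-limiting glutamate-cysteine ligase, and *gsr*, glutathione reductase. The *gclc* signal was 1696 to 2343 (median 2153) in control and 1875 to 2473 (median 2125) in ethanol-exposed embryos, with a log2 change of 0.04 (standard error 0.08, 95% interval -0.14 to 0.23). *gsr* had a log2 change of 0.01 (standard error 0.09, 95% interval -0.19 to 0.22) and *gclm* one of -0.01 (standard error 0.13, 95% interval -0.31 to 0.30). The signs of these small values changed under some alternatives. The *gclm* ratios ran from -0.59 to 0.39, and its interval only just lay within 0.32 of 0. Of 6 glutathione transferase genes tested, none passed (5.40% of all probe sets), and 1 had an unadjusted p under 0.05 (18.2% of all probe sets). *gstm.1*, of the mu class, had control signals of 956 to 1689 (median 1334) and ethanol signals of 1276 to 2082 (median 1487). It was higher in 6 of 6 experiments, though with ratios of only 0.00 and 0.04 in experiments 1 and 3, with a log2 change of 0.28 (standard error 0.11, adjusted p = 0.232, exact sign-flip permutation p = 0.031). *gstt1a*, of the theta class, was lower in 5 of 6 experiments with a log2 change of -0.42 (standard error 0.22, adjusted p = 0.350), its ratios spreading from -1.24 to 0.51.

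**Figure D3:**
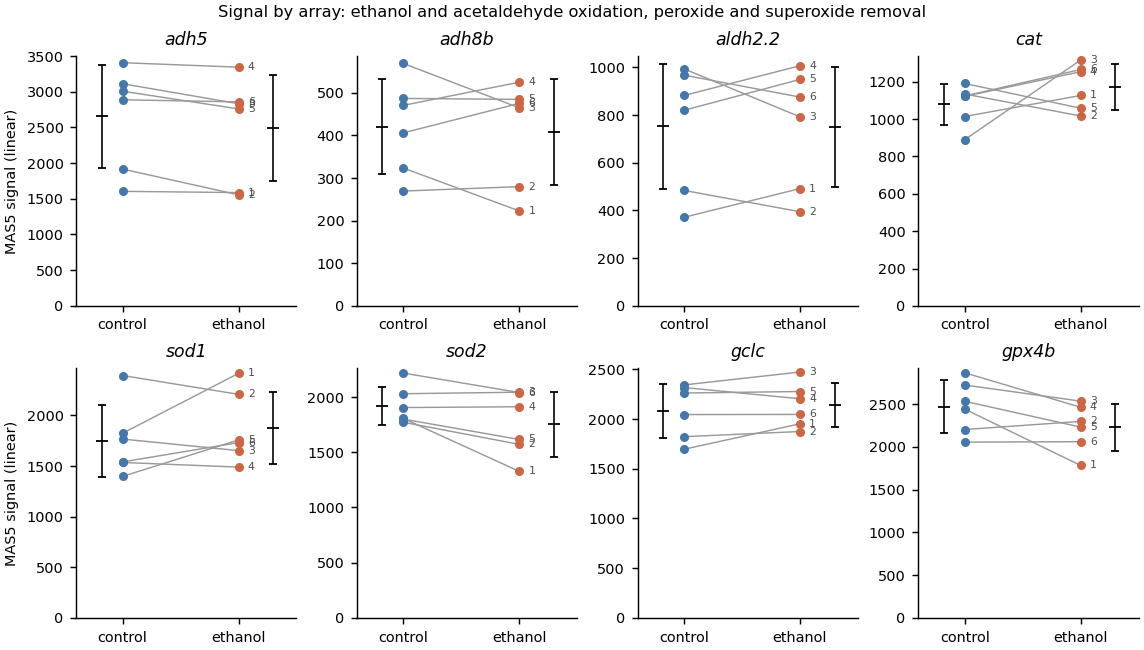
MAS5 signal (linear scale) on each array for alcohol and aldehyde dehydrogenase genes (*adh5*, *adh8b*, *aldh2.2*). Also shown are genes of the removal of superoxide and peroxides (*cat*, *sod1*, *sod2*, *gpx4b*) and of glutathione synthesis (*gclc*). *adh8a*, whose product oxidizes ethanol, was under the minimum and is not shown. Lines join the arrays of an experiment, numbered at the right, and black bars are the mean and SD of 6 arrays. Experiments 1 and 2 lie below the others in both treatments for *adh5*, *adh8b*, *aldh2.2* and *gclc* and above them for *sod1*, and no gene shown was called.

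Several of these genes differed far more between experiments than between treatments. For *adh5* the 4 arrays of experiments 1 and 2 read 1556 to 1917, and the 8 arrays of experiments 3 to 6 read 2760 to 3408. *aldh2.2* read 371 to 492 in the first 4 and 793 to 1007 in the other 8. *adh8b* read 223 to 324 and 406 to 569. Each of these genes was therefore lower in experiments 1 and 2 with and without ethanol, with no overlap. The same held for *aldh6a1* (1442 to 1542 against 2437 to 2884), for the transferase gene *gstp1.2* (684 to 766 against 1181 to 1572) and for the peroxiredoxin gene *prdx1* (509.9 to 694 against 1201 to 1861), whereas *aldh18a1* was higher there (3079 to 4059 against 1652 to 2561). In all, 9 of the 59 genes (15.3%, against 8.08% of all probe sets) were lower on every array of experiments 1 and 2 than on any other, and 6 (10.2%, against 5.62%) were higher on every one, *sod1* (1824 to 2415 against 1398 to 1767), *txnl1*, *cyp2x7*, *gpx8* and *txndc15* beside *aldh18a1*. The genes and the split were picked after their values were seen, and what set the experiments apart was not tested. For *prdx1* the mean of the pair varied 3.54-fold over the 6 experiments, while its log2 change with ethanol was 0.02 (standard error 0.09).

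The mean level of a pair, on the log2 scale, varied over the 6 experiments by a median range of 0.76 for the 59 genes and of 0.70 for all probe sets. The median absolute log2 change with ethanol was 0.15 in both. For all 59 genes the range between experiments was above the ethanol effect, as it was for 97.7% of all probe sets, and a range over 6 values is wider by construction than a mean difference. The SD of the 6 log2 ratios had a median of 0.29 for the genes and 0.31 for all probe sets. For *adh5* that SD was 0.11, against 0.44 for the log2 signals of its 6 control arrays, for *aldh6a1* 0.07 against 0.45 and for *cyp11a1.1* 0.10 against 0.34. *cat* had pair means within 1.12-fold of each other and ratios from -0.17 to 0.56. Without the experiment term limma called none of the 59 genes, and 6 had an unadjusted p under 0.05.

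**Figure D4:**
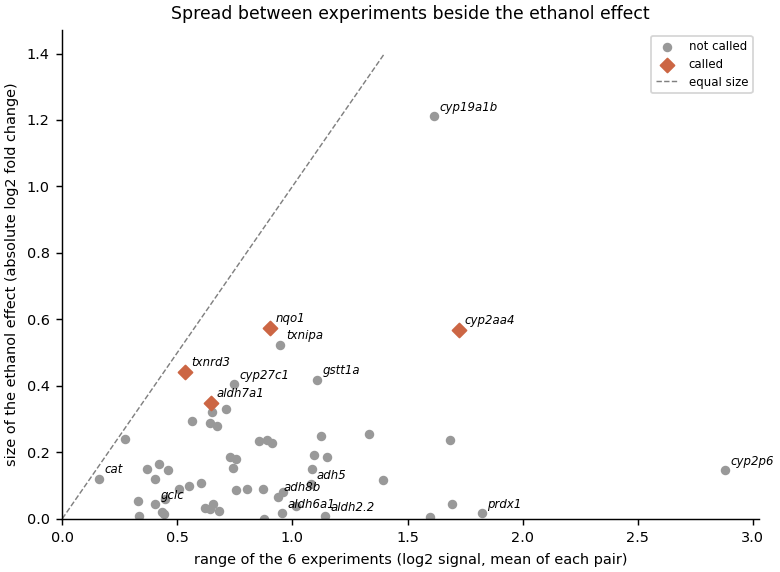
Size of the ethanol effect (absolute log2 change, vertical axis) beside the range of the 6 experiments (log2 signal, mean of the control and ethanol array of each, horizontal axis) for the 59 genes, called genes as diamonds. All points lie below the dashed line of equal size, *txnrd3* and *cat* close to it and *prdx1*, *adh5* and *aldh2.2* far to its right.

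Genes of the same pathways that the symbols above do not cover were read from a list of 108, of which 58 were on the array and 48 were tested. Of these 48, 2 were called higher (4.17%, against 5.40% of all probe sets called) and 0 lower, with a median log2 change of -0.01. An unadjusted p under 0.05 was found for 11 (22.9%, against 18.2% of all probe sets), 7 with a positive and 4 with a negative change. Among the 11 are *tigarb* and *slc3a2a*. *tigarb*, also 1 of the 2 called, reached the minimum through its ethanol arrays alone. *slc3a2a* (control mean 63.9, ethanol mean 46.3) reached it through its controls alone. With these included, neither count can be read as a result about the list. *rdh14b*, of a retinol dehydrogenase family, was higher in 6 of 6 experiments with a log2 change of 0.41 (standard error 0.12, adjusted p = 0.165) and was called under 4 alternatives, and the malic enzyme gene *me3*, higher in 5 of 6 at 0.33 (standard error 0.10, adjusted p = 0.162), under 2. *slc3a2b*, which encodes a subunit of amino acid exchangers, was lower in 5 of 6 experiments with a log2 change of -0.39 (standard error 0.12, adjusted p = 0.167), and was called under 5 alternatives. *tigarb*, whose mammalian counterpart turns sugar phosphate towards the NADPH-making pentose phosphate path, had control signals of 8.66 to 39.4 and ethanol signals of 46.4 to 71.6. All ethanol arrays were above all control arrays, and the log2 change was 1.98 (standard error 0.32, adjusted p = 0.0665). The control mean of 18.8 was under the minimum, so that *tigarb* was admitted by the group in which it was high, and neither its call, the separation nor the size can be relied on. With the minimum on the mean of all 12 arrays it was not tested and *chac1* alone of the list was called. Without experiment 3 the call was lost at 1.84 (adjusted p = 0.179). *chac1*, which encodes an enzyme that breaks glutathione down, had control signals of 818 to 1038 and ethanol signals of 850 to 1671. It was higher in 6 of 6 experiments, with a log2 change of 0.40 (standard error 0.11, adjusted p = 0.148), and its call was lost without any one experiment (0.31 to 0.47). *tigarb* was 1 of 12 tested genes of NADPH supply and *chac1* 1 of 5 of glutathione synthesis and turnover. None was called among 2 aryl hydrocarbon receptor genes, 8 glutaredoxin and methionine sulfoxide reductase genes, 6 Nrf2 partners and targets, and 15 other alcohol and acetaldehyde enzymes.

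Markers of the labelled stage were present. All 10 blastula markers were tested and none was called, the 4 germ cell markers and the 5 enveloping layer markers likewise. Log2 changes ran from -0.28 (*tbxta*) to 0.41 (*sox19b*) over the blastula markers. They ran from -0.59 (*dnd1*) to 0.28 (*nanos3*) over the germ cell markers and from -0.28 (*krt8*) to 0.21 (*cldne*) over the enveloping layer markers. Not being called does not show that a marker was unchanged. Markers of organs formed later, meant to be low, had means of at most 77.0. Even so, 2 of the 6 on the array passed the minimum and were tested. These were *ckma* (control mean 60.2, ethanol mean 77.0) and *elavl3* (44.4 and 70.6). A mean near the minimum therefore does not show that a gene is expressed. Of the 5 yolk syncytial layer markers 4 were tested and *apoa1a* fell, by 1.03 on the log2 scale (adjusted p = 0.0885). The summed signal of that list was 1827 to 3469 in control and 1867 to 2708 in ethanol arrays, its dimmest marker *apobb.1* averaged 40.9 and 37.5, and its defining gene *mxtx2* 1431 and 1607. *hnf4a* averaged 652 and 487, lower in 5 of 6 experiments at a log2 change of -0.38 (adjusted p = 0.169), *slc26a1* was lower in 5 of 6 at -0.18, and the median over the 4 tested markers was -0.28. The part of these markers in the lower signals of *nqo1* and *cyp2aa4* was not tested.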

How the data were processed

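The authors hybridized total RNA of embryo pools to 1-colour Affymetrix Zebrafish Genome Arrays and made MAS5 signals with Affymetrix Expression Console (version not given in the sources used here). Deposited intensity values are linear, background-corrected and scaled, with a mean (2% trimmed at each end) of 500.1 on every array. The methods name a scaling target higher than this mean, and why was not settled, so the signals and the minimum of 50 hold on the deposited scale only. Detection calls were not used here. The signal minimum of 50 stands in for them, though *ckma* and *elavl3*, markers meant to be low, also passed it. The authors left out a further experiment, control and ethanol, because the RNA of an ethanol sample was of low integrity. That experiment is not among the arrays used here.

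Genes were named through the array's platform annotation, and current names were looked up by gene identifier. Affymetrix control probe sets were left out. The model was limma's (version 3.58.1, under R 4.3.3; lmFit, then eBayes) on log2 signals, with a call at a fold of 1.25 or more and the p limits in the text. Python 3.11.15 with pandas 2.3.3 and numpy 2.4.6 gave the exact sign-flip tests. The steps were tested on simulated data. The methods fit experiment as a random effect and use Storey q. These were tried as separate alternatives and not together. Storey q was used on an ordinary fit without eBayes, with experiment as a fixed factor, and the random block was fitted by limma with Benjamini-Hochberg adjustment. Precision is limited by the number of arrays.

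Same-numbered arrays form a pair here because the methods fit independent experiment and because deviations of all 6 pairs from the treatment means correlated at 0.373 to 0.669. The controls of 1, 3 and 4 nevertheless resembled an ethanol array of another number more than their own.

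The genes, roles and lists were chosen with earlier results of these data known. Genes named in the text are the called ones, the brightest of each role, the 5 largest changes not called, called genes of the pathway list, and *adh5*, *adh8a*, *adh8b*, *cat*, *sod1*, *sod2*, *nfe2l2a*, *keap1a*, *gclc*, *gclm*, *gsr*, *cyp2p6* and *aldh2* genes. Others named were chosen with their values known. The alternatives were other blocks, thresholds, signal minimums, scalings, an added constant, averaging the probe sets of a gene and leaving out each experiment. No sequences or coordinates are given.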

Additional observations from a re-analysis of the deposited data

Results flagged for a closer look

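Among 52 groups of 6 signals checked, those of the named genes in each treatment, 1 held an array far from the rest. The *aldh7a1* signal of the ethanol array of experiment 6 was 629, and those of the other ethanol arrays were 353 to 455. The gap to the nearest was 0.632 of the group's range, above the critical value of 0.625. Chance marks about 1 in 20 groups. The control array of the same experiment also had the highest control signal, 465, and its ratio of 0.44 lay among those of the other experiments. Without experiment 6 the *aldh7a1* change was 0.33 (adjusted p = 0.245 from limma).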

How the results depend on the processing

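Values are given as higher then lower. The counts of the 59 genes called were 2 and 2, and those over all probe sets 369 and 158. No change of a called gene reversed. Without the replicate block none of the 59 genes was called (0 and 0; all probe sets 1 and 0, with the genes of the pathway list at 0), and the same was true at an adjusted p under 0.05 (0 and 0; all 16 and 17; list 0) and with no signal minimum (0 and 0; all 1 and 1; list 0). Quantile normalization gave 1 and 3 for the genes, 141 and 186 for all and 1 for the list, and median centring 1 and 3, 120 and 287, and 1 and 2, with a median of the genes at -0.0893 against 0.0158. In both fits *cyp2aa4*, admitted by its controls alone, is among the 3 lower. The 1 list gene higher in both is *tigarb*, admitted by its ethanol arrays alone. These counts therefore cannot be read as a lean in either direction. A minimum of 100 gave 605 higher over all probe sets and 1 list gene lower. The list had 4 higher with the fit without eBayes and with Storey q. It had 1 lower with that fit, with the random replicate block (genes 3 and 3, *cyp2aa4* lost and *cyp19a1b* and *cyp27c1* added lower) and with log2(signal + 50) (genes 2 and 3). The minimum on the mean of all arrays, chosen after seeing the data, gave 1 list gene higher, without *tigarb*, and lost *cyp2aa4*. Leaving out each experiment gave 0 to 1 genes higher and 0 lower, 12 to 96 and 11 to 49 over all probe sets, 0 to 1 list genes higher and 0 to 1 lower, and medians of -0.01 to 0.02. Fewer arrays enter these fits. Other causes were not tested. The next counts leave aside the adjusted p under 0.05, where every call of the 59 genes was lost, and the minimum on the mean of all arrays. Of the remaining 15 alternatives, the call of *txnrd3* was lost in 7, of *nqo1* in 8 and of *aldh7a1* in 11. The call of *cyp2aa4* was lost in 7 of the 11 that gave it a value. Signals near the minimum, as for *cyp2aa4*, *cyp19a1b* and *tigarb*, limit the size of a fold.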
